A study of Mus musculus with 4 samples.

Results

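RUNX1 binding away from transcription starts was examined at 5046 sites of the mouse genome, those called in both of 2 RUNX1 ChIP-seq libraries. ChIP-seq recovers the DNA fragments that an antibody pulls down with a protein and reports where they pile up as peaks, each with a summit. On chr1 to chr19 the summits of both peak lists, widened by 200 bp on either side, merged into 24543 sites. Those kept held a summit of both lists and had a centre over 1500 bp from all transcription starts of GENCODE vM21. The 5046 sites are 20.6% of all sites and 36.2% of the 13937 sites in both lists. The other 8891 sites in both lists lie at promoters. A further 4198 distal sites were specific to the list of the +DOX-labelled library and 2037 to that of the -DOX-labelled one. The sites were chosen by these calls and by distance, so neither is a result.

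All libraries came from mouse embryonic stem cells (ESCs) taken in culture to day 2 floating hematopoietic progenitors (HP). The genotype, shared by the controls, was Tet-on dominant-negative FOS (dnFOS), so that Doxycycline (DOX) switches on a FOS peptide that pairs with JUN and keeps it off the DNA. The chromatin was crosslinked with disuccinimidyl glutarate and formaldehyde and precipitated with an anti-RUNX1 antibody. There was 1 library labelled with Doxycycline and 1 labelled without, so no spread between replicates could be measured and no test between conditions was possible. The sample labels and the run name inside each peak list give opposite treatments for both RUNX1 libraries. The libraries are therefore called +DOX-labelled and -DOX-labelled, and every direction between them turns round if the run names are right. Another 2 libraries of the series carry the histone mark H3K27me3 in their labels, but their titles and treatments contradict each other and the protocol given with them names the RUNX1 antibody. They were assigned to no condition. The peak lists hold no expression values, so the cell type could not be checked against its markers.

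RUNX1 is the DNA-binding subunit of a transcription factor that works with its partner CBFβ and is required for blood cells to emerge from hemogenic endothelium. It recognises a short DNA word around TGTGGT and, at enhancers of blood cells, is found with ETS family factors such as PU.1, with GATA factors and with AP-1. AP-1 is the family of JUN and FOS dimers that responds to signaling. H3K27me3 is the mark laid down by the Polycomb complex at silenced genes.

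The sequences that the results turn on are shown first, each as the 120 bases around a summit on the + strand of mm10. Matches to consensus words on either strand are in capitals. The words were TGTGGTT for RUNX, TGTGGT or TGCGGT for a short form of RUNX that also holds every RUNX word, and CAGGAAG for ETS, which was also matched with A as its last letter or with CC at its start. GAGGAAGT stood for PU.1, TGAGTCA or TGACTCA for AP-1, AGATAA for GATA, TTGCNNAA for C/EBP and GGAATG for TEAD. Because it starts with GA, a PU.1 word does not itself hold an ETS word, though the ends of neighbouring words can overlap. A match is a description of the letters and is not evidence of binding by that factor. Each sequence is named by the protein-coding gene whose start lies nearest.

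The first 2 belong to the strongest sites of all. Both lie under peaks of both H3K27me3-labelled libraries and hold none of the words in the bases printed.
Rpusd4 (chr9:35305370-35305489, + strand, intron): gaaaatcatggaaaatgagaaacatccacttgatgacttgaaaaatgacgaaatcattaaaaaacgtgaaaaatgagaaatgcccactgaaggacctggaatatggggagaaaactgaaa
Rab10 (chr12:3109908-3110027, + strand, intergenic): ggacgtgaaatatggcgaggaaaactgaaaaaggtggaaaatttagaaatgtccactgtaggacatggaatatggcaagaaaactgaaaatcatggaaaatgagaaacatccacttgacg
Those that follow are the strongest site outside H3K27me3-labelled peaks (next to Atrnl1) and further strong sites with RUNX words beside ETS or GATA words or in several copies.
Atrnl1 (chr19:57994436-57994555, + strand, intron): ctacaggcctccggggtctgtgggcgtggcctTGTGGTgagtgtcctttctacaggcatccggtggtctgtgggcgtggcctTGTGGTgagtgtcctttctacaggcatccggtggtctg
Itsn1 (chr16:91789864-91789983, + strand, intron): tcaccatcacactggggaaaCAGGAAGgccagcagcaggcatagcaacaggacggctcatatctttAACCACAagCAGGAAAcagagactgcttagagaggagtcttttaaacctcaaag
Lgalsl (chr11:20896651-20896770, + strand, intergenic): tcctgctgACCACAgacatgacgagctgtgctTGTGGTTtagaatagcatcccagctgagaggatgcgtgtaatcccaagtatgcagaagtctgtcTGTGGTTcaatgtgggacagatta
Mad2l1 (chr6:66347461-66347580, + strand, intergenic): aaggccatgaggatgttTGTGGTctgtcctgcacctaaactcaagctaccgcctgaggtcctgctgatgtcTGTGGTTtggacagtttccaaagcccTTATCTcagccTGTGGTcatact
Gse1 (chr8:120370100-120370219, + strand, intron): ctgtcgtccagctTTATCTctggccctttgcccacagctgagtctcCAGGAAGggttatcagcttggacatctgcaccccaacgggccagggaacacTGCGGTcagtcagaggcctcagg
A row of short RUNX words in tandem marks a number of sites, among them these next to Btbd9 and Vrk2.
Btbd9 (chr17:30519116-30519235, + strand, intron): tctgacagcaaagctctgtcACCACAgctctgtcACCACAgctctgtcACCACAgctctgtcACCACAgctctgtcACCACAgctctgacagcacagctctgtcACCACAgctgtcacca
Vrk2 (chr11:27027517-27027636, + strand, intergenic): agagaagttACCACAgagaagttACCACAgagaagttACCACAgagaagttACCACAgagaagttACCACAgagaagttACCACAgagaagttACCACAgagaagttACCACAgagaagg
The strongest site of the Runx1 locus holds a pair of short RUNX words facing each other.
Runx1 (chr16:92822214-92822333, + strand, intron): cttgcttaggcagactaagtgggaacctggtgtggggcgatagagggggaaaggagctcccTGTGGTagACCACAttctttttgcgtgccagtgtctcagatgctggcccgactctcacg
The next 2 were among the sites with the largest change of strength between the libraries. The site next to Ism1 was much stronger in the +DOX-labelled library and the site next to Arhgap15 in the -DOX-labelled library.
Ism1 (chr2:139841474-139841593, + strand, intron): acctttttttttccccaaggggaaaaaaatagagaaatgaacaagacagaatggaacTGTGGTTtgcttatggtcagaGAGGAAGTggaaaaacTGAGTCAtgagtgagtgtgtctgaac
Arhgap15 (chr2:43836049-43836168, + strand, intron): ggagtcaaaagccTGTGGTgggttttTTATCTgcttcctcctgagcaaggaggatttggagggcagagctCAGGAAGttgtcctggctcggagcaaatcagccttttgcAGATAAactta
The last pair comes from a repeated unit between Ezh2 and Pdia4.
Ezh2 (chr6:47659467-47659586, + strand, intergenic): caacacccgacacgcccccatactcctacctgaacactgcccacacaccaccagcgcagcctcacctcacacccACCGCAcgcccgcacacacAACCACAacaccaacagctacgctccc
Pdia4 (chr6:47740023-47740142, + strand, intergenic): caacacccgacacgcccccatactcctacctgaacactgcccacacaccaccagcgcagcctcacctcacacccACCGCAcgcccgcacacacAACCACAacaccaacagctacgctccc

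The sites were well above the threshold in both lists. Strength is given as the fold enrichment of the peak over the local background of its own library and as -log10 of its q-value, for which 1.3 would be the weakest call allowed. The median fold enrichment was 6.39 in the +DOX-labelled library and 5.83 in the -DOX-labelled library, with quartiles of 4.90 to 8.83 and 4.59 to 8.11. The median -log10 q was 12.9 and 10.8, against 5.64 for distal sites of the +DOX list alone and 4.61 for those of the -DOX list alone. A call in both lists was required by the rule and favours strong peaks, so this difference was built into the choice of sites. Promoter sites in both lists had medians of 11.7 and 10.01. Of the 5046 sites, 2231 (44.2%) reached a -log10 q of 10 in both libraries, 296 reached 50 and 74 reached 100, while 19 were under 2 in at least 1 library. The depth of the libraries is unknown, so levels of -log10 q are not comparable between them and the comparison is of ranks.

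The 2 libraries ordered the sites in a similar way, though not closely. Across sites the rank correlation of -log10 q was 0.70, and 0.75 at the 8891 promoter sites. At the 4443 sites outside both H3K27me3-labelled lists it was 0.66, and at the 603 under at least 1 of them 0.92. These points share libraries and neighbouring sequence and are not independent replicates. The summits of the 2 libraries lay a median of 33 bp apart (quartiles 13 and 66), and 3284 sites (65.1%) had them within 50 bp. A site was a median of 433 bp wide, and 4924 of the sites were made from 1 summit of each library. Just inside the limit of distance, the 236 sites at 1501 to 2000 bp from a start had a median -log10 q of 11.3 and 9.95, and the 366 sites at 1000 to 1500 bp, just outside it, had 11.2 and 9.53.

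The strongest sites were unlike the rest. Of the 10 with the highest -log10 q in both libraries, 9 lay under peaks of both H3K27me3-labelled libraries. The strongest of all, next to Rpusd4 at chr9:35305228-35305629, reached a -log10 q of 655 in the +DOX-labelled library and 657 in the -DOX-labelled library. The next, at chr12:3109760-3110167 near Rab10, reached 554 and 562, and the site in an intron of Chl1 at chr6:103648997-103649410 reached 501 in both. These values are nearly the same in the 2 libraries. Several of the 10 share sequence with each other. The best alignment of the 200 bp at Rab10 to that of 2210408I21Rik was 82.9% identical, that of Rpusd4 to Cdk5rap2 was 78.1% and that of Chl1 to Dpy19l1 was 61.4%. The 200 bp near Sel1l held 29 copies of TTAGGG, the repeat of chromosome ends. At 5 of the 10 at least 50% of the window is marked as repeat in the reference genome. Chl1 and Dpy19l1, which share sequence, stood at only 31% and 25%. The marking therefore does not count every sequence that occurs more than once.

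**Figure D1:**
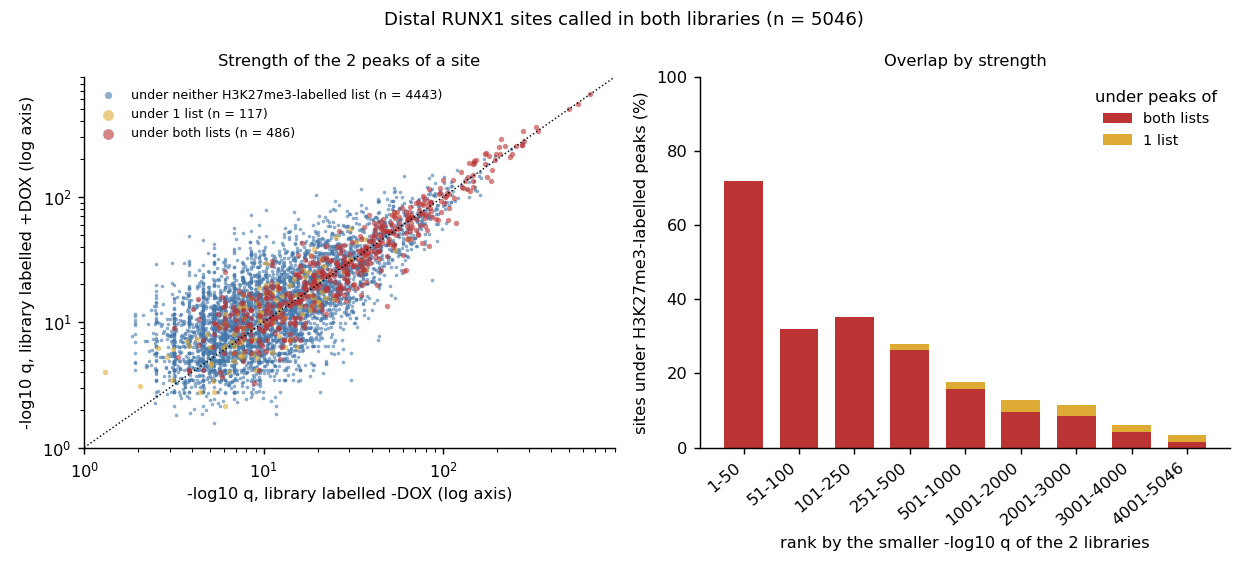
Strength of the 5046 distal RUNX1 sites called in both libraries. Left, -log10 q in the -DOX-labelled library (x, log axis) against that labelled +DOX (y, log axis), 1 point per site, coloured by overlap with H3K27me3-labelled peaks, with the line of equality dotted; right, percent of sites under such peaks in groups ranked by the smaller -log10 q. Sites under both lists (486) lie close to the line and make up 72.0% of the strongest 50 and 1.43% of ranks 4001 to 5046.

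Overlap with H3K27me3-labelled peaks was most frequent among the strongest sites. Of all 5046 sites, 486 lay under peaks of both lists (9.63%, 95% Wilson interval 8.85 to 10.5) and 603 under at least 1 (12.0%). Among promoter sites in both lists the share under both was 3.81%, and among distal sites of 1 list it was 1.31% (+DOX) and 2.80% (-DOX). Distal sites of 1 list were also weaker, so these shares are not compared at equal strength. By rank, 36 of the strongest 50 lay under both, 16 of ranks 51 to 100, 53 of ranks 101 to 250, 66 of ranks 251 to 500 and 15 of ranks 4001 to 5046. Such an interval covers counting error only, and sites with the same repeat are not independent.

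The 603 sites had another makeup than the other 4443. Repeat made up at least 50% of the window at 51.9% of the 603 (47.9 to 55.9) and at 5.92% of the 4443 (5.26 to 6.65). Their -log10 q had a median of 20.7 and 20.1, against 12.1 and 9.94 outside, and their rank correlation between the libraries was 0.92 against 0.66. The RUNX word was in 5.80% of the 603 (4.203 to 7.97), against 5.22% of windows shifted from the same sites by 2000 bp. The PU.1 word was in 0 of 603, which allows a share of up to 0.498%. GATA was at 4.98% and ETS at 6.80%, both under the shifted windows (10.8% and 11.3%). So by the RUNX word these sites could not be told from the sequence beside them, and the shares of words below are given for the 4443 sites outside H3K27me3-labelled peaks unless all 5046 are named. The part of repeats in this overlap was not tested.

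Outside those peaks the sites held RUNX, ETS, PU.1, GATA and AP-1 words more often than shifted windows did. The RUNX word was in the 200 bp around the summit at 28.9% of the 4443 sites (27.6 to 30.2), against 4.99% of shifted windows, and the short RUNX word at 58.4% (56.9 to 59.8) against 17.0%. Over all 24543 RUNX1 sites these shares were 14.3% and 37.5%. ETS was at 40.9% (39.4 to 42.3) against 15.4% of shifted windows and 30.0% of all RUNX1 sites. PU.1, the ETS factor of myeloid cells and B cells, was at 7.81% (7.06 to 8.64) against 1.23% and 4.71%. GATA was at 26.7% (25.4 to 28.0) against 10.7% and 11.7%. AP-1 was at 7.79% (7.04 to 8.61) against 3.54% and 5.003%. C/EBP at 8.55% and TEAD at 10.6% stood close to their shifted windows (7.88% and 9.77%), and over all RUNX1 sites they were at 6.48% and 8.65%.

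Promoter sites in both lists differed from these by far more than counting error. They held RUNX at 5.51% (5.06 to 6.01), GATA at 4.68% and AP-1 at 2.24%, none above their shifted windows, while ETS reached 28.6% against 14.0%. The short RUNX word was above its shifted windows there, at 29.2% (28.2 to 30.1) against 17.1%. The median share of G and C letters was 69% at promoter sites and 51% at the 4443 sites. Both classes of distal sites of a single list held RUNX and ETS less often than the 4443 shared sites. RUNX was at 23.8% of sites specific to the +DOX list and 18.9% of those specific to the -DOX list, and ETS at 32.5% and 28.1%. Single-list sites were weaker, with a median -log10 q of 5.64 (+DOX list) and 4.61 (-DOX list), against 12.1 and 9.94 at the 4443 sites. In the weakest of 5 equal groups of the 4443 by strength, RUNX was at 23.3% and ETS at 35.9%. The shares of these classes are therefore not compared at equal strength. The single-list classes also keep their sites under H3K27me3-labelled peaks. Over all 5046 shared sites RUNX was at 26.1%, ETS at 36.8% and GATA at 24.1%. The single-list classes also differed from each other in GATA, PU.1 and AP-1. For sites specific to the +DOX list, GATA was at 12.4% (11.45 to 13.4), PU.1 at 10.5% (9.59 to 11.44) and AP-1 at 10.1% (9.22 to 11.05). For sites specific to the -DOX list, GATA was at 24.0% (22.2 to 25.9), PU.1 at 2.41% (1.82 to 3.17) and AP-1 at 5.06% (4.19 to 6.10). The 4443 shared sites lay between the single-list classes for PU.1 and AP-1 and above both for RUNX and ETS.

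**Figure D2:**
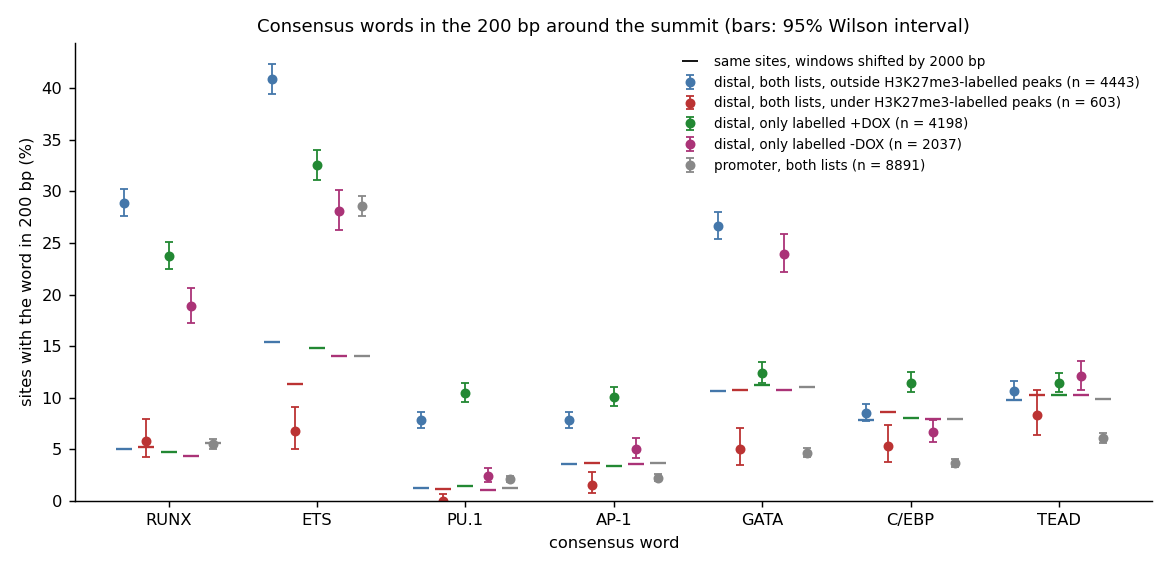
Share of sites with each consensus word in the 200 bp around the summit, in percent, for 5 classes of RUNX1 site. Points are shares with 95% Wilson intervals and short bars are the same sites with windows shifted by 2000 bp; RUNX is at 28.9% of distal sites in both lists outside H3K27me3-labelled peaks and at 5.80% of those under them.

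RUNX words sat closest to the summit. Within 100 bp, the median distance of a RUNX word from the summit was 30.5 bp, and 35.3% of the matches lay within 20 bp. PU.1 words had a median of 35 bp, GATA words of 38 bp and ETS words of 38.5 bp, against 42.5 bp for AP-1, 43 bp for TEAD and 44.5 bp for C/EBP. At 516 sites with both a RUNX and an ETS word the nearest pair lay a median of 32 bp apart, and 178 of them had the pair within 20 bp. ETS was at 40.2% of sites with a RUNX word and 41.1% of those without, PU.1 at 8.02% and 7.72%, and AP-1 at 7.32% and 7.98%, all within each other's intervals. GATA was at 24.2% (22.0 to 26.6) of sites with a RUNX word and 27.7% (26.1 to 29.3) of those without, with intervals that overlap slightly. It was at 17.0% (13.4 to 21.3) of the 347 sites with a PU.1 word and at 27.5% (26.1 to 28.9) of the 4096 without.

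Outside H3K27me3-labelled peaks the strongest group of sites held RUNX words more often than the weakest. In 5 equal groups of the 4443 sites by the smaller -log10 q of the 2 libraries, the short RUNX word rose from 47.8% (44.5 to 51.1) in the weakest group to 69.0% (65.9 to 72.0) in the strongest, and the RUNX word from 23.3% (20.6 to 26.2) to 36.1% (33.1 to 39.4). GATA went from 21.7% to 31.3% and ETS from 35.9% to 47.1%. AP-1 was at 9.22% (7.49 to 11.3) of the weakest and 6.87% (5.38 to 8.73) of the strongest, and PU.1 at 8.32% and 7.21%, with overlapping intervals. Among the strongest 50 sites 45 held a short RUNX word (90.0%, 78.6 to 95.7), 25 an ETS word and 16 a GATA word. Over all 5046 sites, where 26.4% of the strongest group lay under H3K27me3-labelled peaks, the groups differed less. From the weakest group to the strongest, RUNX was at 23.2% and 27.1%, GATA at 21.3% and 24.9% and ETS at 35.5% and 37.0%, all with overlapping intervals. The short RUNX word was at 47.5% (44.5 to 50.6) and 54.6% (51.5 to 57.7). Outside H3K27me3-labelled peaks the number of words moved with strength as well. Sites without a short RUNX word (1849) had a median smaller -log10 q of 7.24, those with 1 (1626) of 8.31, with 2 (701) of 9.45, with 3 (167) of 10.5 and with at least 4 (100) of 13.3. The quartiles of these groups overlapped widely, from 4.60 to 12.9 without a word and from 6.51 to 26.4 with at least 4. Over all 5046 sites the medians were 8.47 without a word and with 1, and 12.6 with at least 4.

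Rows of RUNX words accounted for the sites with the most copies. At 63 sites outside H3K27me3-labelled peaks the 200 bp held at least 5 short RUNX words. There were 17 at a site next to Chn1 and at each of 2 sites next to Osbpl10, 16 next to Cbln4 and Klhl29, and 11 next to Btbd9 and Vrk2. Their strength varied. The site next to Btbd9 at chr17:30518976-30519385 had a -log10 q of 199 in the +DOX-labelled library and 168 in the -DOX-labelled library. The site next to Klhl29 had 45.3 and 40.1, and the weaker of those next to Osbpl10 had 6.44 and 3.58.

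**Figure D3:**
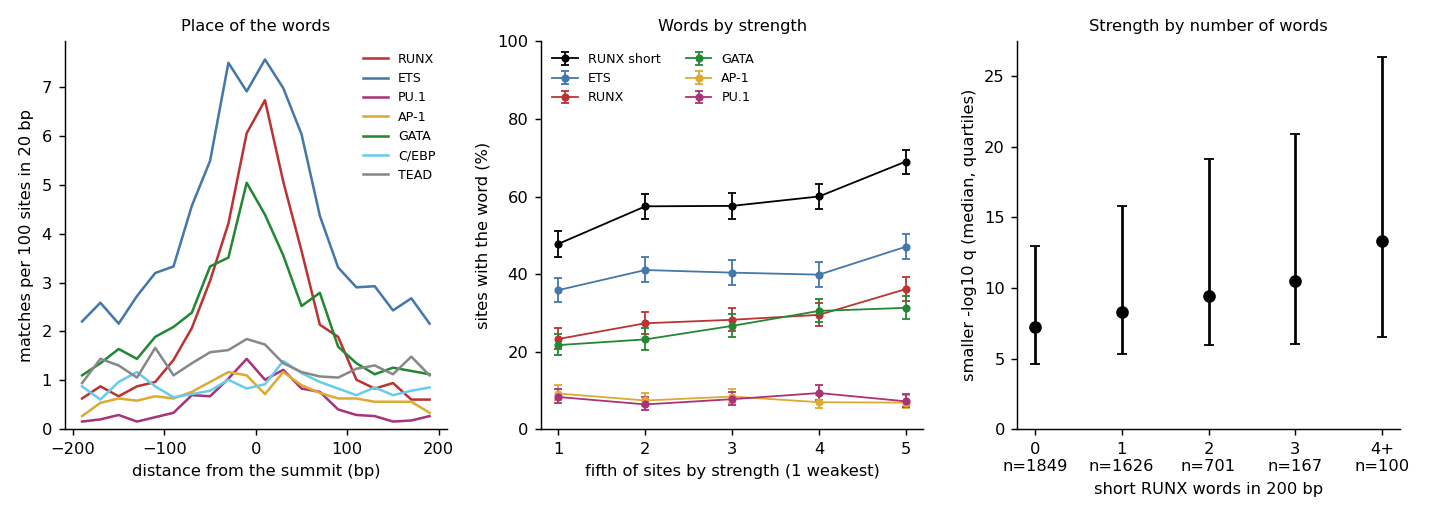
Consensus words and strength at the 4443 sites outside H3K27me3-labelled peaks. Left, matches per 100 sites in bins of 20 bp by distance from the summit (bp); middle, percent of sites with each word in 5 equal groups by strength, with 95% Wilson intervals; right, median and quartiles of the smaller -log10 q by number of short RUNX words. RUNX words peak at 6.73 per 100 sites in the 20 bp after the summit, and the median -log10 q goes from 7.24 without a short RUNX word to 13.3 with at least 4.

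Of the 20 strongest sites outside H3K27me3-labelled peaks, 12 lay in introns and 7 between genes. The strongest was in an intron of Atrnl1, 383463 bp downstream of its start, with a -log10 q of 266 (+DOX) and 279 (-DOX). Its 120 bases, printed above, hold the short RUNX word in each of 2 copies of a longer repeat. The next was in an intron of Itsn1, an endocytic scaffold gene, with 242 and 238, and a RUNX word lay 2 bases from an ETS word there. A site in an intron of Tox2, an HMG-box factor gene, had 210 and 194, and the site near Lgalsl, 65653 bp upstream of it, had 183 and 175 with RUNX words in 2 copies and a further short one. Of the 20, 19 held a short RUNX word and the site next to Lacc1 did not.

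The words differed with the direction in which strength changed between the libraries. Each peak was given its percentile within its own list, and the change is the percentile in the +DOX-labelled library minus that in the -DOX-labelled library. The lists held 21467 and 18052 peaks on these chromosomes, and a longer list with more weak peaks raises the percentile of every shared site, so the balance of rises and falls is not one of strength alone. Over all 5046 sites the median change was 1.21 points (quartiles -8.40 and 16.5), 2842 sites (56.3%) had the higher percentile in the +DOX-labelled library, and 1329 (26.3%) changed by over 25 points. In 5 equal groups of the 4443 sites, from the largest fall to the largest rise, GATA was at 36.2% (33.1 to 39.4), 34.5%, 25.6%, 20.4% and 16.6% (14.3 to 19.1). PU.1 went the other way, from 3.94% (2.84 to 5.43) through 7.09% in the middle group to 12.5% (10.5 to 14.8). AP-1 was at 5.74% (4.39 to 7.46) of the first group and 10.9% (9.04 to 13.1) of the last, and RUNX at 24.3% (21.6 to 27.2) and 31.6% (28.7 to 34.8). ETS (36.9% and 39.98%) and TEAD (10.7% and 9.57%) had overlapping intervals. C/EBP was at 6.86% (5.38 to 8.72) of the first group and 10.02% (8.22 to 12.2) of the last, with intervals that overlap slightly. Between the corresponding groups of all 5046 sites C/EBP differed by 3.57 percentage points (1.17 to 5.98). The groups were not equal in strength, with a median smaller -log10 q of 6.31, 13.4, 20.3, 9.29 and 5.30, and the window lay at the summit of the library with the higher percentile. The study, with sites chosen by another rule, reports RUNX1, AP-1, PU.1 and C/EBP motifs at RUNX1 sites lost with dnFOS. It reports RUNX, GATA and ETS motifs at sites gained. By the labels followed here, PU.1, AP-1 and GATA words went the opposite way. Whether the labels or the run names are right was not tested.

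**Figure D4:**
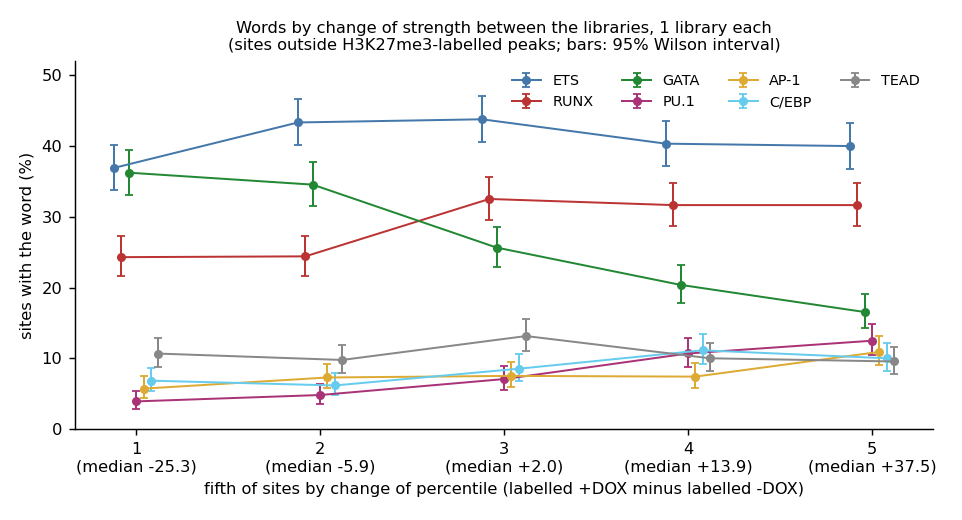
Share of sites with each word (percent, 95% Wilson intervals) in 5 equal groups of the 4443 sites outside H3K27me3-labelled peaks, ordered by the change of percentile from the -DOX-labelled library to the +DOX-labelled library, 1 library each. GATA goes from 36.2% to 16.6% and PU.1 from 3.94% to 12.5%; the order turns round if the labels are exchanged.

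The sites with the largest changes are extremes of the same change of percentile, so they are examples and not further support. Among the 3520 sites with a -log10 q of at least 10 in at least 1 library, the largest fall was near L3mbtl4, with 3.45 in the +DOX-labelled library and 30.6 in the -DOX-labelled library, or percentiles of 7.21 and 91.0. It holds a GATA word. The site in an intron of Arhgap15, a Rac GTPase-activating protein, had 2.78 and 20.7 and holds a GATA word on each side of an ETS word in the sequence above. The site near Gfra2 had 3.92 and 21.3, in Dlc1 3.73 and 18.2, and near Mki67, the proliferation marker Ki-67, 4.84 and 27.5. Of these 5 sites 3 hold a GATA word and none a PU.1 or AP-1 word, and all 5 hold a short RUNX word. Among the 5 largest rises, the site near Trdmt1 had 29.2 and 2.52 and holds an AP-1 word. The site nearest to the start of Ism1, in an intron of Tasp1, had 29.5 and 3.10 and holds RUNX, PU.1 and AP-1 words in 1 stretch. The row of RUNX words near Vrk2 had 48.5 and 3.85, the site near Tomm20 had 29.6 and 3.59, and that next to Gm10322, with a PU.1 word, had 19.7 and 2.52. None of these 5 holds a GATA word. These 10 were chosen for their change, and each value comes from 1 library.

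Nearly all the sites lay in introns or between genes. Of all 5046, 2513 (49.8%, 48.4 to 51.2) were intronic and 2293 (45.4%) intergenic, and UTRs, coding exons and other exons held 1.64%, 1.68% and 1.43%. On a grid of 1 position every 10000 bp, under the same limit of distance, 42.6% were intronic and 54.1% intergenic. The median distance to the nearest protein-coding start was 17837 bp, against 52616 bp on the grid. Within 10 kb of one lay 34.4% of the sites and 19.1% of the grid, and over 100 kb away lay 13.3% and 37.9%. They lay upstream of the start in 47.6% of cases.

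The 5046 sites were spread over many genes, most with a single one. By nearest start, 3554 of 20780 protein-coding genes (17.1%) had at least 1 site and 300 (1.44%) had at least 3. Outside H3K27me3-labelled peaks these were 3213 genes (15.5%) and 253 (1.22%). A gene far from its neighbours gathers sites by its room alone. The median stretch nearest to a gene's start was 43.6 kb over all genes, 113 kb for genes with a site and 247 kb for genes with at least 3. For 2261 sites the nearest start of any kind belonged to another gene, so the gene name gives a place and not a target. Genes with more distal sites more often had a promoter site in both lists as well. It was there at 33.6% (32.9 to 34.3) of genes without a distal site outside H3K27me3-labelled peaks, 47.3% (45.3 to 49.3) with 1, 54.2% (50.1 to 58.2) with 2 and 67.2% (61.2 to 72.7) with at least 3.

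The genes with most sites outside H3K27me3-labelled peaks had between 6 and 12. Gse1, a coiled-coil chromatin protein, had 12, with -log10 q from 3.902 to 133 (+DOX) and 6.93 to 148 (-DOX), all in introns of it or of overlapping transcripts. Ezh2, which encodes the enzyme that writes H3K27me3, had 11 and Pdia4, a protein disulfide isomerase, had 7, but nearly all of these belong to a repeated array described below. Runx1 itself had 8. Irs2, the insulin receptor substrate, had 7, the strongest 39528 bp upstream at 104 and 160. Gadd45g, a growth arrest and stress gene, Rere, a corepressor, and Tiam1, a Rac exchange factor, had 7 each. Cbfa2t3, the ETO2 corepressor, had 6 within 54.9 kb, the strongest at 63.0 and 71.5 and the next at 85.1 and 52.3. Zfpm1, which encodes the GATA cofactor FOG1, Zeb2, a repressor of differentiation programs, Zmiz1, a transcriptional coactivator, and the polarity gene Pard3 had 6 each. When sites under H3K27me3-labelled peaks were counted too, Olfr161 (9 of its 9 sites under them), Sfi1 (8 of 9), Scaf8 (7 of 7) and Tcte2 (7 of 8) joined the top.

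The Runx1 locus carried 8 sites over 547 kb (chr16:92601124-93147903), none under an H3K27me3-labelled peak. In genome order their -log10 q in the +DOX-labelled library was 25.9, 32.8, 38.4, 72.4, 8.09, 7.81, 14.9 and 14.2, and in the -DOX-labelled library 24.9, 32.0, 44.4, 94.0, 16.3, 7.52, 13.1 and 40.9. The strongest in both was the intronic site 3507 bp downstream of a start, at chr16:92822068-92822473. Its paired short RUNX words are in the sequence printed above. The largest gap in percentile, 47.3 against 76.8, was at a site 30827 bp upstream, and the site 321555 bp upstream, with RUNX and GATA words, stood at 71.2 against 94.3. Both were higher in the -DOX-labelled library.

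The other regulators reported had up to 3 sites each. Cebpa, the granulocytic regulator, had 1 site 20312 bp upstream with 8.88 and 3.17. Tal1, a stem cell factor, had 2, at 5.16 and 10.7 and at 3.44 and 9.46 (+DOX first), both higher in percentile in the -DOX-labelled library. Kit, the stem cell factor receptor, had 2 far downstream, at 19.9 and 10.2 and at 26.2 and 8.05, both higher in the +DOX-labelled library. Of the AP-1 genes, Fos had 3 (25.7 and 20.4, 21.3 and 21.3, 13.0 and 6.81) and Jun had 2 (8.08 and 6.07, 13.8 and 11.2). Gata2, Csf1r, Csf2rb and Galnt1 had none by this rule.

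Lists of genes by function, with sites counted over all 5046, were set beside the 17.1% of all genes with a site. The lists were chosen with earlier results of these data known and their shares are a description. Of 20 regulators of stem and progenitor cells, 14 had a site (70.0%) and 7 had at least 3, namely Runx1, Cbfa2t3, Meis1 (5), Erg (4), Lmo2 (4), Etv6 (3) and Runx3 (3), while Gata2, Gfi1b, Hhex, Ldb1, Mecom and Myb had none. Per Mb of stretch, over all genes, there were 2.05 sites. These regulators had 9.09 per Mb, granule and phagocyte genes 12.3, megakaryocyte genes 11.5, AP-1 genes 11.1 and erythroid genes 9.98, while G1 cell cycle genes, with a median stretch of 92.3 kb, had 2.04. Endothelial genes had 5.93, cytokine receptors 5.73, myeloid regulators 4.54, leukocyte adhesion genes 4.06 and the TEAD and YAP pathway 4.04. Neural genes had 1.34, liver genes 1.17, heart genes 0.588 and pluripotency genes 0. The value for granule and phagocyte genes rests on 8 sites and a median stretch of 27.8 kb. Sites lay nearer to starts than the grid did, so lists with short stretches are not on a par with all genes. Of the other blood lists, myeloid regulators had 8 of 15, cytokine receptors 7 of 17, granule and phagocyte genes 7 of 18, megakaryocyte genes 6 of 13, leukocyte adhesion genes 5 of 15 and erythroid genes 4 of 12. AP-1 and related genes had 5 of 12, G1 cell cycle genes 8 of 12 with 5 sites at Ccnd3 (cyclin D3), and the TEAD and YAP pathway 3 of the 10 genes matched. Among genes of other cells, endothelial genes had 10 of 18, with 3 sites each at Cdh5, Flt1 and Kdr. Pluripotency genes had 0 of 10, neural and liver genes 2 of 10 each and heart genes 1 of 10. Outside H3K27me3-labelled peaks the counts of genes were 13 for stem and progenitor regulators, 4 for AP-1, 6 for cytokine receptors, 5 for megakaryocyte genes and 1 for liver genes and did not change for the other lists, and Flt1 and Kdr had 2 sites each. Genes of the lists differ in room, with a median of 121 kb for stem and progenitor regulators and 32.9 kb for pluripotency genes, and with 10 to 20 genes a list the shares are rough.

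**Figure D5:**
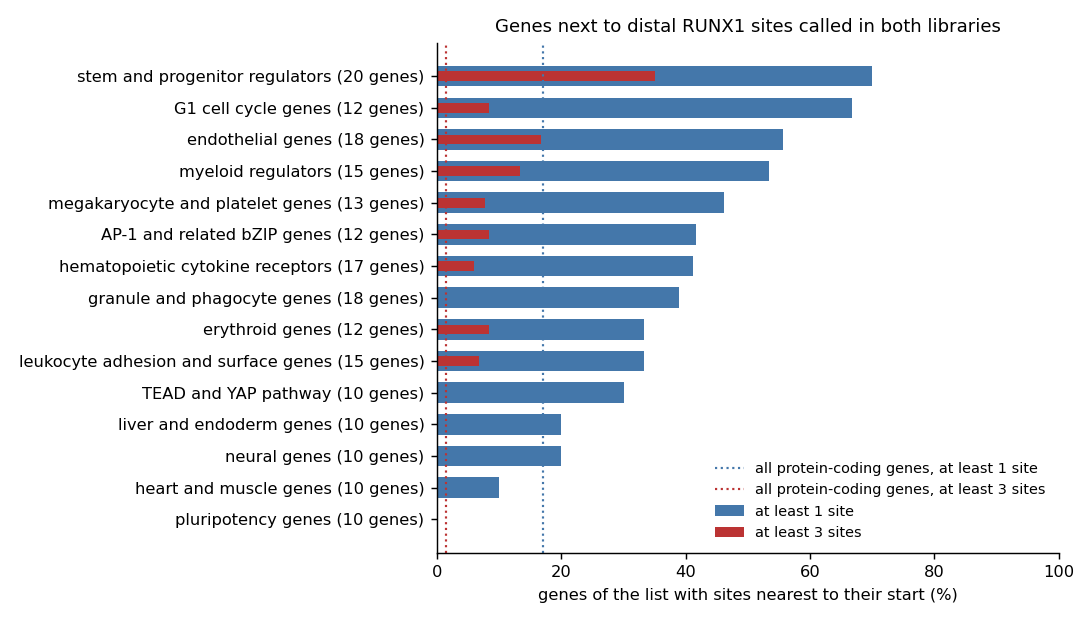
Percent of the genes of each list with at least 1 (wide bars) or at least 3 (narrow bars) distal RUNX1 sites in both libraries nearest to their start. Dotted lines are the shares over all 20780 protein-coding genes, 17.1% and 1.44%; stem and progenitor regulators stand at 70.0% and pluripotency genes at 0.

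Among the strongest sites of the lists, several lay outside H3K27me3-labelled peaks. Selp, the adhesion molecule P-selectin, had a site 5761 bp upstream at a -log10 q of 145 (+DOX) and 101 (-DOX). Fosb, an AP-1 subunit, had 148 and 60.6 at a site 6627 bp upstream and 49.1 and 68.2 at another. Rara, the retinoic acid receptor, had 111 and 113, Gfi1, a repressor of the myeloid and stem cell lineages, 90.5 and 110, and Il10ra, an interleukin receptor, 86.2 and 93.6. Yap1, the coactivator of TEAD factors, had 86.7 and 34.9. The highest of the lists, at the VEGF receptor gene Flt1 with 207 and 235, lay under peaks of both H3K27me3-labelled libraries, as did the only sites of Cd34 (12.8 and 4.01) and Apob (108 and 105).

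A minority of sites lay in clusters. Neighbouring centres were joined over gaps whose median was 5306 bp and whose widest was 12493 bp. By this, 878 of all 5046 sites (17.4%) fell into 391 clusters, of which 52 had at least 3 sites, 9 at least 5 and 2 at least 10. Outside H3K27me3-labelled peaks 730 sites (16.4%) fell into 337 clusters, of which 39 had at least 3 sites, 3 at least 5 and 1 at least 10. Both of the largest, with 14 sites next to Pdia4 and 12 next to Ezh2, belong to 1 repeated array on chr6:47655009-47778406. Of its 26 sites 16 hold a RUNX word, and the 107 bases centred on that word are identical in all 16. Within each cluster neighbouring copies lay a median of 4335 bp apart, from 4260 to 5598 bp. The -log10 q ran from 3.18 to 47.4 (+DOX) and 3.60 to 37.0 (-DOX), and 9 of the 26 lay under an H3K27me3-labelled peak. A read that falls within these bases cannot be assigned to a copy, so the 16 sites are not independent of each other.

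Outside H3K27me3-labelled peaks and the array, the largest cluster had 5 sites in introns of Zfpm1 (chr8:122304160-122318606), with -log10 q of 4.27 to 59.6 and 3.42 to 54.4, 2 with an ETS word and 2 with a GATA word. Clusters of 4 lay nearest to Mvb12b, Def8 and Tubb3, Zmiz1, where the strongest reached 102 and 87.4, and Elf1, an ETS factor gene. The 713 clustered sites outside the array held RUNX less often than the 3713 single ones (21.2% against 30.1%), the short RUNX word at 53.4% against 59.1%, and ETS (41.2% and 41.0%) and GATA (25.8% and 26.96%) about equally. Their median -log10 q was 13.1 and 10.2, against 11.9 and 9.92. The other clusters of at least 5 sites, at Gm14496 and Polr3k (6), Scaf8 (6), Atg7 and Hrh1 (5), Trpm1 (5), Gm11168 and Gm10721 (5) and Olfr161 (5), had every site under an H3K27me3-labelled peak.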

How the data were processed

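RUNX1 ChIP-seq peak lists from 2 libraries, 1 per condition, and 2 lists labelled H3K27me3 were analysed. Per the study's methods, the authors used Trimmomatic 0.39 for trimming, Bowtie2 2.3.5 for alignment to mm10, Picard 2.20.2 for duplicates and MACS2, with a q-value limit of 0.05 and on 1 library at a time, for peaks. The submitters' processing notes name Bowtie2 2.2.9 and MACS2 2.1.1, and an input control is not given in the sources used here. The deposited lists give every peak a fold value, its enrichment over local background, with a p-value and a q-value on the -log10 scale. The depth of the libraries is unknown. The study's methods go on to filter the called peaks by a blacklist and a repeat list of mm10 and by DNase1 data. The deposited lists were not filtered here in any of these ways. The sites described here are therefore not the set of sites used in the study.

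Sites, nearest starts, clusters and consensus words came from Python 3.11.15 scripts (numpy 2.4.6). Plots used matplotlib 3.10.9. The gene models were GENCODE vM21, and sequences were read from GRCm38, which has the coordinates of mm10. The steps were tested on simulated data, where 100% of 6000 simulated sites got the right class and the 95% intervals held the true share in 1871 of 2000 draws (93.55%). Conditions came from the sample labels. An overlap with an H3K27me3-labelled peak was at least 1 bp. Shares have 95% Wilson intervals for counting error over sites. With 1 library per condition no p-value was computed. The genes named were those of the 10 strongest sites, the 10 genes with most sites, the largest clusters, the 5 largest rises and falls of percentile, 11 regulators, and the leading genes of 15 lists. A site at 1 of the regulators is not reported here. The strongest sites outside H3K27me3-labelled peaks and the sites with most RUNX words were added after their values were seen, as were the alternatives without H3K27me3-labelled peaks. The sites and lists were chosen with earlier results of these data known.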

Additional observations from a re-analysis of the deposited data

Results flagged for a closer look

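The 2 libraries labelled H3K27me3 enter no comparison of conditions, and their peaks covered 486 of the 5046 distal RUNX1 sites in both of their lists (9.63%). The share was 3.81% at promoter sites in both RUNX1 lists and 1.31% (+DOX list) and 2.80% (-DOX list) at distal sites of a single list. The single-list sites were weaker, with a median -log10 q of 5.64 and 4.61. Among the 5046 sites the share fell with strength, to 1.43% of ranks 4001 to 5046, so these shares are not compared at equal strength. No control library was among the files used, so no background for this overlap was available. The protocol given with these libraries names the RUNX1 antibody, and which antibody was used was not tested.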

How the results depend on the processing

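No paired analysis was possible because each condition had 1 library, and no replicate could be left out. Requiring a -log10 q of 10 in both libraries left 2231 sites. The 391 clusters became 250 at a -log10 q of 5, 99 at 10, 187 with neighbours joined at 5000 bp and 591 at 25000 bp. In a 100 bp window the shares over all 5046 sites were 18.8% for RUNX, 24.8% for ETS, 4.3004% for PU.1, 4.08% for AP-1, 15.6% for GATA, 4.42% for C/EBP and 5.49% for TEAD. In a 400 bp window they were 30.8%, 49.3%, 8.84%, 11.43%, 32.9%, 15.3% and 20.7% in the same order. The other consensus words tried gave 53.7% for RUNX (its short form), 8.58% for AP-1 and 17.5% for GATA. At a -log10 q of 10, RUNX was at 27.7%, AP-1 at 5.83% and GATA at 25.6%. Without sites that are at least 50% repeat, RUNX was at 27.4%, ETS at 39.9% and GATA at 25.9%. Without sites under both H3K27me3-labelled lists, RUNX was at 28.3%, ETS at 40.04%, PU.1 at 7.61% and GATA at 26.2%. Without sites under either, an alternative chosen after seeing the data, RUNX was at 28.9%, ETS at 40.9%, PU.1 at 7.81%, AP-1 at 7.79% and GATA at 26.7%, 51.2% of sites were intronic, and the rank correlation of the libraries was 0.66. It was 0.72 by fold enrichment. With starts kept 5000 bp away 48.1% were intronic.

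With the libraries exchanged, the difference between the groups of largest rise and largest fall turned round, as the construction requires. In percentage points RUNX went from 8.55 to -8.69, ETS from 2.41 to -2.64, PU.1 from 8.33 to -8.61, AP-1 from 4.76 to -4.75, GATA from -18.0 to 18.2 and C/EBP from 3.57 to -3.66. The other 77 alternative values stayed within the interval of their main value or within 1.5 times it. The unknown depth limits any comparison of levels between the libraries, and calls near the threshold depend on it.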
